A study of Trachemys scripta elegans with 3 samples.

Results

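Retrotransposon and transposase transcripts were taken from the liver transcriptome of the red-eared slider, Trachemys scripta elegans, a freshwater turtle. A unigene, that is an assembled transcript cluster, was included when its best match in the NR protein database came from Chrysemys, Chelonia, Pelodiscus, Trachemys or Alligator and its description held a term such as reverse transcriptase, RNA-directed DNA polymerase, transposon, transposase, transposable element or LINE-1. Of 205118 unigenes in the table used here, 31658 had a match in these 5 genera and 223 of those met the rule. Turtles of 2 years of age were kept for 30 days in freshwater (0 psu, practical salinity units, the control) or in saltwater of 5 psu or 15 psu, with 3 animals per pool. The sample labels write the salinities as 0%, 5% and 15%. The livers of the 3 animals of a pool were mixed into 1 library, so there are 3 libraries, no replicates, and no error or test for any difference between salinities. Levels are FPKM, the number of sequenced fragments corrected for unigene length and for library size, and are deposited to 2 decimals.

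Transposable elements are DNA sequences that move or copy themselves within a genome. Retrotransposons do so through an RNA copy that a reverse transcriptase turns back into DNA, and LINE elements, among them the CR1 family that is abundant in turtle genomes, carry their own reverse transcriptase. DNA transposons are cut out and moved by a transposase. Most copies are broken or silenced, and a number of host genes, such as those derived from Tigger and piggyBac elements, arose from transposase sequences and no longer move. The same words in a protein description can therefore stand for a repeat or for an ordinary gene of the host.

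The 223 members were of both kinds. The main group was 163 unigenes (73.1%) matched to partial reverse transcriptase sequences of the green turtle Chelonia mydas, 154 of them to 1 entry and 9 to another. A further 7 unigenes were matched to an RNA-directed DNA polymerase homolog of the softshell turtle, and 2 to a retrovirus-related Pol polyprotein named after a fly transposon. Names of genes derived from Tigger elements were carried by 37 unigenes: 18 by Tigger-derived 1, 10 by number 4, 5 by number 5, 3 by number 3 and 1 by number 6. The piggyBac-derived gene PGBD5 had 2 unigenes. GIN1, a host gene derived from a gypsy integrase, had 3, and POGZ, a chromatin protein with a pogo transposase domain, and THAP9, a domesticated P element transposase, had 1 each. Telomerase reverse transcriptase (TERT), which extends chromosome ends, had 6 unigenes. The term LINE-1 was met by 1 unigene only, and that was the E3 ubiquitin ligase Midline-1, in which the letters occur by accident. It is a gene of the host and not a retrotransposon, and it was kept in the counts because the rule includes it. The RefSeq annotation of this species (assembly CAS_Tse_1.0) lists 9 of the 11 host symbols sought and not TIGD1 or TIGD6. No sequence of a unigene was used here.

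Other annotations, which the rule did not use, covered a share of the members. Pfam gave its reverse transcriptase domain (RVT_1) to 16 members, all among the 163 green turtle matches, and to none of the other members. Pfam gave no domain of any kind to the rest of that group. Of the 37 Tigger-derived unigenes, 20 carried a DDE transposase, helix-turn-helix or CENP-B domain and 24 had a Tigger gene as best Swissprot match. Of the 7 RNA-directed DNA polymerase homologs, 6 had a Swissprot match and none a Pfam domain. These matches were to entries from yeast, the fly, a plant and a plant virus. Midline-1 carried its own symbol, MID1, in its KEGG name, and all 6 TERT unigenes carried TERT in theirs. That name was not confined to telomerase. It was carried by 26 unigenes, of which 8 were members and 6 had a telomerase NR text. The RNA-directed DNA polymerase homolog c152236_g1 was among those 8. Among the 163 green turtle matches, 87 carried KEGG names, 39 different ones, and none of these named a reverse transcriptase. Of the 25 unigenes with CD40, a receptor of immune cells, in their KEGG name, 17 were members, and the NR text named CD40 for 2. For PDIA4, a protein folding enzyme, 15 of 55 were members and 1 had an NR text of that name. For FAT1_2_3, a protocadherin group, 9 of 16 were members.

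Of the members, 154 matched the same protein entry, and RSEM divides fragments that fit several unigenes by estimation. The level of a single reverse transcriptase unigene can therefore be uncertain. Whether these unigenes share fragments was not tested. The 223 members lay in 201 Trinity components, which are groups of contigs assembled together. Of the 163 green turtle matches, 77 shared a component with other unigenes, and 38 shared one with a further unigene named for a repeat outside the rule. The unigene of highest level, c112264_g3, shared its component with 6 others, among them a transposon-derived and a jockey-like polymerase match and 1 matched to angiotensin-converting enzyme.

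The livers expressed their markers. All 6 hepatocyte genes found of 7 listed, including apolipoprotein A-I and fibrinogen beta, were at an FPKM of at least 10 in each library. All sums here take only the leading unigene of each gene, that of highest mean FPKM. For the hepatocyte genes they reached 11312 FPKM in freshwater, 6151 in 5 psu and 6541 in 15 psu. The difference was carried mainly by albumin, with 4846, 824.0 and 1268. A second albumin unigene outside the sum, c111797_g2, had 3791, 693.6 and 978.0. Erythrocyte genes summed to 1253, 1558 and 885, with 3 of 4 found, and lymphocyte genes to 88.5, 50.4 and 42.7, with 4 of 4 found. The lymphocyte difference was carried mainly by CD3E, with 62.0, 25.6 and 24.0. CD79B had 12.4, 8.81 and 5.61, PTPRC 12.5, 15.1 and 11.45, and IGHM 1.59, 0.91 and 1.61. Further hemoglobin alpha unigenes and a CD3E unigene (c101741_g1, 30.1 at 0 psu only) are outside these sums. Of 9 germ cell genes, 7 were found. By the leading unigene of each gene their sum was 22.1, 26.2 and 33.1, of which SYCP3 held 20.8 in the library at 15 psu and was listed at 0 in the others. These leading unigenes were at 0 for 4, 2 and 3 of the 7 genes, and all unigenes of a gene were at 0 for 2, 2 and 1. Of the 7, 5 also belong to the list of genes that restrain transposable elements. In mixed tissue, fewer cells of a type and less RNA per cell cannot be told apart, and the part of these shifts in the members' levels was not tested.

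A total of 162 members were above 0 in at least 1 library and 61 (27.4%) were listed at 0 in all 3. Above 0 in 1, 2 and all 3 libraries were 52 (23.3%), 29 and 81 (36.3%) members. Over all unigenes the shares for 0, 1, 2 and 3 libraries were 20.6%, 32.3%, 15.3% and 31.9%. Among the 31435 other unigenes matched to the same 5 genera, 65.0% were above 0 in all 3 libraries and 10.6% in none. In the shares for all 3 libraries and for none, the members stood nearer to the unselected assembly than to the other unigenes with a turtle or alligator match. This held for the green turtle matches. The other members, with 50.0% in all 3 and 11.7% in none, stood nearer to the other matched unigenes. For 1 library, the members' 23.3% lay between the 14.5% of the other matched unigenes and the 32.3% of all unigenes. By group it was 20.9% of the green turtle matches and 30.0% of the other members. In this share the other members stood nearer to all unigenes.

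By library (0, 5 and 15 psu), 111, 131 and 111 members had a signal, which is 49.8%, 58.7% and 49.8%. The same shares over all unigenes were 50.1%, 58.5% and 49.8%. The excess of detected members at 5 psu was thus as large in the whole table. In the paper's read totals the library at 5 psu was also the deepest and that at 15 psu the shallowest. The part of depth in these counts was not tested. Of the members seen in a single library, 16 were in that at 0 psu, 25 in that at 5 psu and 11 in that at 15 psu. These are 7.17%, 11.2% and 4.93% of the members, against 9.06%, 14.6% and 8.66% of all unigenes. Pairs of libraries held 10 (0 and 5 psu), 4 (0 and 15 psu) and 15 (5 and 15 psu), or 4.48%, 1.79% and 6.73%, against 5.98%, 3.21% and 6.11% of all unigenes.

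**Figure D1:**
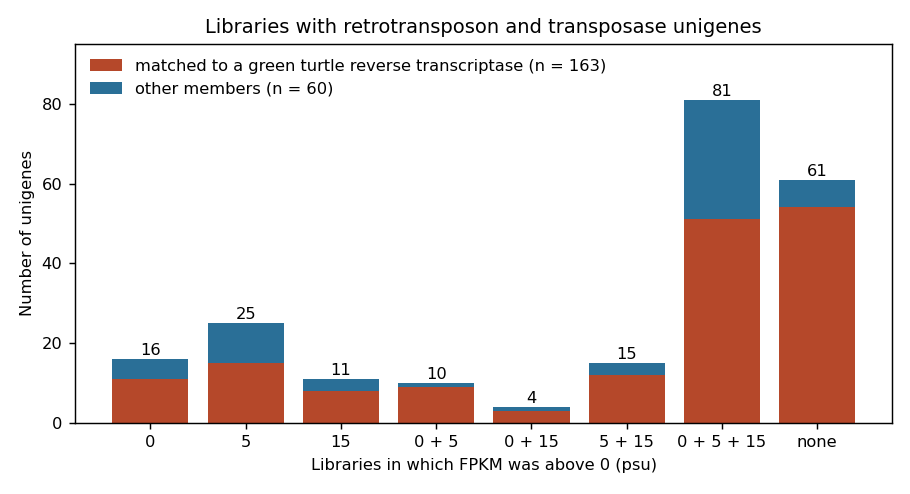
Number of members by the libraries in which their FPKM was above 0, with green turtle reverse transcriptase matches (lower part of each bar) and the other members (upper part). The tallest bars are the 81 members above 0 at all 3 salinities and the 61 listed at 0 in each library.

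The groups of members differed in these counts. Of the 163 green turtle reverse transcriptases, 51 (31.3%) were above 0 in all 3 libraries and 54 (33.1%) in none. Of the other 60 members, 30 (50.0%) were above 0 in all 3 and 7 (11.7%) in none. All 6 TERT unigenes, Midline-1 and 4 of the 5 unigenes of GIN1, POGZ and THAP9 were above 0 in every library, as were 16 of the 37 Tigger-derived unigenes. Neither of the 2 PGBD5 unigenes was: c203604_g1 was found at 5 psu only, with an FPKM of 4.11, and c71178_g1 at 0 psu only, with 0.77.

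Detection in all 3 libraries was about as frequent among members of low and of high level. For members with a highest FPKM above 0 and under 1, 54.8% of 31 were above 0 in all 3 libraries, and for those at 10 and over it was 50.0% of 12. The other unigenes of the 5 genera went from 65.5% of 4397 to 84.3% of 6727 over the same range. Over all unigenes the share was 54.7% in the lowest bin and 31.3% at FPKM of 10 and over.

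**Figure D2:**
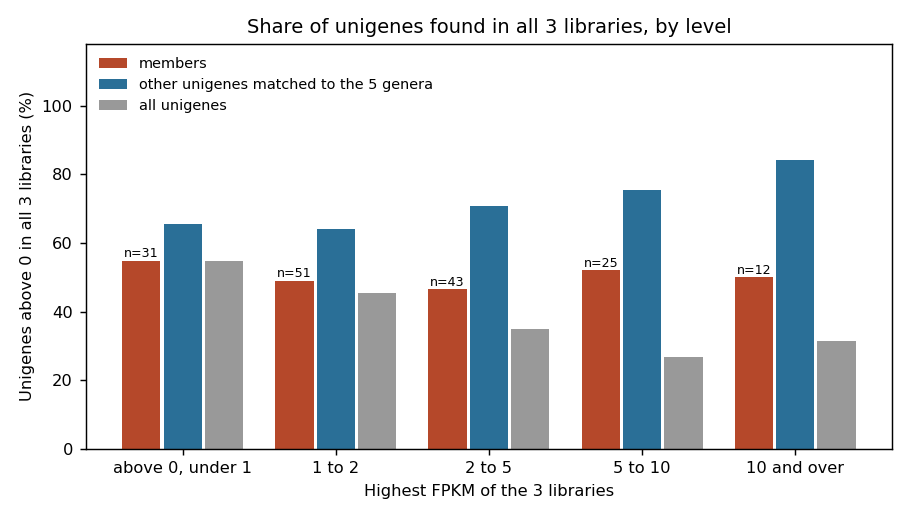
Share of unigenes above 0 in all 3 libraries (y axis, percent) by the highest FPKM of the 3 libraries (x axis), for the members, the other unigenes matched to the 5 genera and all unigenes. The members stayed between 46.5% and 54.8% in each bin, while the other matched unigenes reached 84.3% in the top bin.

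Levels were low. The median FPKM of members above 0 was 1.42, 1.43 and 1.45 (0, 5 and 15 psu), close to the medians over all unigenes above 0 of 1.42, 1.41 and 1.34. The other unigenes of the 5 genera had medians of 2.97, 2.90 and 2.95. FPKM of at least 1 was reached by 72, 88 and 70 members and FPKM of at least 10 by 7, 6 and 7, in the order 0, 5 and 15 psu. Summed over the members, FPKM came to 377.6, 463.5 and 357.3 in these libraries, or 0.0383%, 0.0478% and 0.0372% of all FPKM. Set against freshwater, the sum gave a log2 ratio of 0.30 at 5 psu (0.20 without the green turtle match c109563_g2) and -0.08 at 15 psu. The ratio of 15 psu to 5 psu was -0.38.

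A few unigenes made up much of the sum. The green turtle matches c112264_g3, c116801_g1 and c109563_g2 held 29.2% of it in freshwater, 28.1% in 5 psu and 18.4% in 15 psu. Without them the members summed to 267.2, 333.2 and 291.7. The 52 members seen in a single library held 16.8%, 16.7% and 16.2%. The green turtle group summed to 301.1, 363.7 and 259.4, the Tigger-derived unigenes to 41.3, 51.4 and 40.9, the 7 RNA-directed DNA polymerase homologs to 1.18, 10.3 and 26.0, and TERT to 10.4, 10.5 and 9.41, in the order 0, 5 and 15 psu.

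The member of highest level was c112264_g3, which carries the reverse transcriptase domain and whose Swissprot match is the polymerase of the fly element jockey. Its FPKM was 65.0, 54.0 and 41.8 in the order 0, 5 and 15 psu. Next was c116801_g1, with 39.1, 40.5 and 15.6. It was nearly level between 0 and 5 psu and low at 15 psu only, with a log2 fold change of -1.32 for 15 vs 0 psu and -1.38 for 15 vs 5 psu. The unigene c109563_g2 stood out at 5 psu, with 6.32, 35.8 and 8.18, a log2 fold change of 2.48 for 5 vs 0 psu and -2.12 for 15 vs 5 psu. By contrast, c122400_g4 stayed within 14.2 and 17.7 in all 3 libraries. The other members of the top 10 that were found in each library were both lower with salt. The level of c124410_g5 was 15.0, 3.44 and 2.25 FPKM, and that of c123393_g1 13.3, 10.7 and 6.23 FPKM. All 6 of these are green turtle matches, the last to the entry with 9 unigenes.

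The other 4 of the top 10 were listed at 0 in at least 1 library. The RNA-directed DNA polymerase homolog c152236_g1 was found at 15 psu alone, with an FPKM of 19.4. Its best Swissprot match is a Pol protein of a fly retrotransposon. The green turtle matches c206652_g1 and c173585_g1 had 17.4 and 12.1 at 0 psu only. The reverse was seen for c99833_g2, which was listed at 0 in freshwater and had 17.3 in 5 psu and 12.4 in 15 psu. These on and off levels run in both directions, and no fold change can be given against a library at 0.

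**Figure D3:**
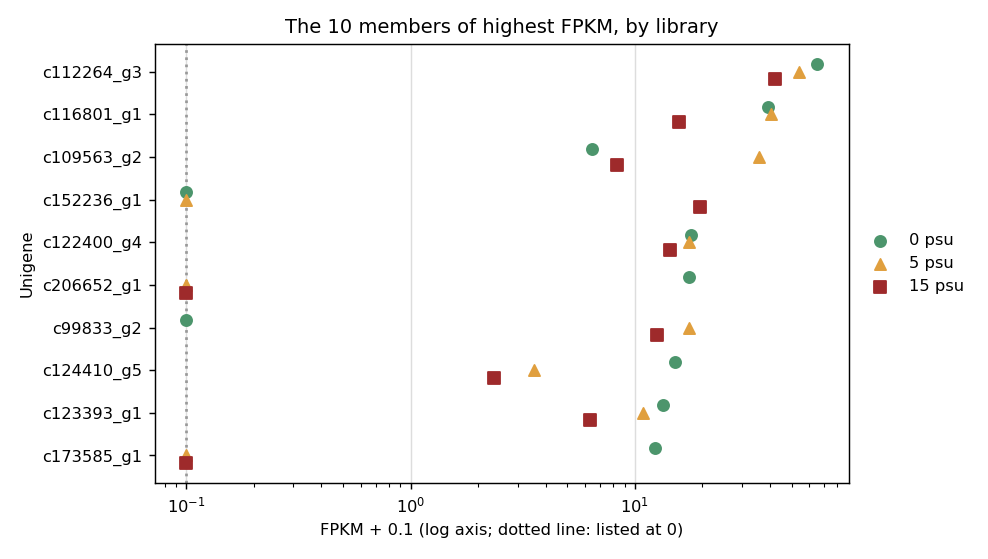
FPKM + 0.1 on a log axis for the 10 members of highest FPKM, with a circle for 0 psu, a triangle for 5 psu and a square for 15 psu. Points on the dotted line are listed at 0. Of the 10, 6 were above 0 in all 3 libraries and only c122400_g4 and c112264_g3 stayed within a 2-fold range.

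Further members listed at 0 in 1 or 2 libraries had lower levels. In the library at 5 psu alone, the highest were c130931_g1 (FPKM 8.75), c148591_g1 (8.49) and c64525_g1 (7.25). At 15 psu alone, c91245_g1 had 9.71 and c109425_g4 7.88. At 0 psu alone the third highest was c68187_g1 with 6.09. Members of the 2 salt libraries included c97880_g1, with 2.76 at 5 psu and 11.5 at 15 psu, and c108343_g1, with 7.52 and 10.4. The pattern of 0 and 15 psu without 5 psu was the rarest, for the members as for all unigenes, and its highest member was c71428_g1, with 7.94 at 0 psu and 2.52 at 15 psu. It was followed by c103870_g1 (1.27 and 2.38) and c59988_g1, an RNA-directed DNA polymerase homolog (0.36 and 1.75). In the libraries at 0 and 5 psu, c115028_g2 had 2.16 and 5.51, c67340_g1 had 3.03 and 1.06 and c67799_g1 had 1.99 and 0.53. All but c59988_g1 are green turtle matches. Of the 52 members seen in a single library, 44 reached FPKM of 1 there, 12 reached 5 and 3 reached 10. Over all unigenes 66193 were seen in a single library. Of these, 6569 stayed under 1, 15182 lay from 5 to under 10 and 16470 reached 10. Levels of 5 and over were thus a larger part of single-library unigenes in the whole table than among the members.

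For the 5 vs 0 psu comparison, 113 members had an FPKM of at least 1 in either library, the level at which changes were counted. A 2-fold or greater difference of FPKM + 0.1 was found for 64 of them (56.6%), 42 higher and 22 lower at 5 psu. Over all unigenes the same criterion was met by 65.5% (37.8% higher, 27.8% lower). Among the other unigenes of the 5 genera 29.7% did so. The share of the members was thus under that of the whole table and above that of the other matched unigenes, and more unigenes were higher than lower at 5 psu in each of these sets. Of the 64, 45 had a library at 0. The median log2 fold change was 0.33 for the members and 0.22 over all unigenes, and unigenes that reached 1 FPKM in every library had a median of 0.08 in this comparison.

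In 68 of the 113 both libraries were above 0, and 19 of these (27.9%) differed 2-fold, 11 higher and 8 lower at 5 psu, against 29.0% of all unigenes treated in the same way (13.9% higher, 15.2% lower) and 14.6% of the other matched unigenes. Their median was 0.01, so that the higher median of the full set came with unigenes listed at 0 in a library. All 11 higher ones were green turtle reverse transcriptases, of which 4 of 43 were lower and the median was 0.19. In the other 25 members none was higher and 4 were lower. The largest log2 fold change of FPKM + 0.1 was that of c100129_g2, with FPKM of 6.63 at 5 psu against 0.17 at 0 psu. Then came c109563_g2, c107360_g1 (4.43 against 0.76), c121682_g6 (1.31 against 0.42) and c122754_g1 (8.48 against 3.26), the last of which carries the reverse transcriptase domain. The largest decreases at 5 psu were those of the Tigger-derived 1-like c103719_g1 (0.31 against 2.38) and 4-like c98092_g1 (0.34 against 1.94). They were followed by the green turtle matches c124410_g5, c121452_g5 (1.54 against 5.84) and c67799_g1.

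For 15 vs 0 psu, 98 members could be compared and 56 (57.1%) differed 2-fold, 28 higher and 28 lower at 15 psu. Over all unigenes 64.0% did so (30.7% higher, 33.3% lower), and 29.5% of the other matched unigenes. The median log2 fold change was -0.01 for the members and -0.04 for all unigenes. Above 0 in both libraries were 61, with 8 higher and 11 lower (31.1%, against 27.2% of all unigenes, 12.2% higher and 15.0% lower, and 14.9% of the other matched unigenes). In this set 16 of 34 green turtle matches (47.1%) and 3 of 27 other members (11.1%) differed 2-fold. The largest increases at 15 psu were in c111647_g1 (8.43 at 15 psu against 1.72 at 0 psu), c112590_g7 (4.14 against 0.95), the polymerase homolog c59988_g1, c107360_g1 (2.97 against 0.76) and c122754_g1 (8.73 against 3.26). The largest decreases were in c124410_g5, c121752_g1 (0.54 against 3.90), c115092_g7 (0.26 against 1.87), c71428_g1 and c109123_g2 (0.36 against 1.24). Of the 10, c59988_g1 was the only one outside the green turtle group.

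For 15 vs 5 psu, 68 of 111 members (61.3%) differed 2-fold, 24 higher and 44 lower at 15 psu, against 65.5% of all unigenes (26.6% higher, 38.9% lower) and 30.3% of the other matched unigenes. The median was -0.37 for the members and -0.26 for all unigenes. With both libraries above 0, 28 of 71 (39.4%) differed, 10 higher and 18 lower, against 29.5% of all unigenes (14.3% higher, 15.2% lower) and 15.5% of the other matched unigenes. Within the green turtle group it was 23 of 45 (51.1%), 7 higher and 16 lower, with a median of -0.47, and within the other members 5 of 26 (19.2%), 3 higher and 2 lower, with a median of -0.06. The largest decreases at 15 psu were in c100129_g2 (0.40 at 15 psu against 6.63 at 5 psu), c121752_g1 (0.54 against 7.15), c110413_g3 (0.29 against 1.79), c115092_g7 (0.26 against 1.49) and c109563_g2. The largest increases were in c90023_g1 (2.48 against 0.25), c111647_g1 (8.43 against 1.24), the Tigger-derived 1-like c103719_g1 (2.34 against 0.31), c112590_g7 (4.14 against 0.67) and c97880_g1. The 3 comparisons share libraries in pairs, so a unigene that stands out at 5 psu, such as c100129_g2, appears in 2 of them. With 1 library per salinity none of these differences was tested.

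**Figure D4:**
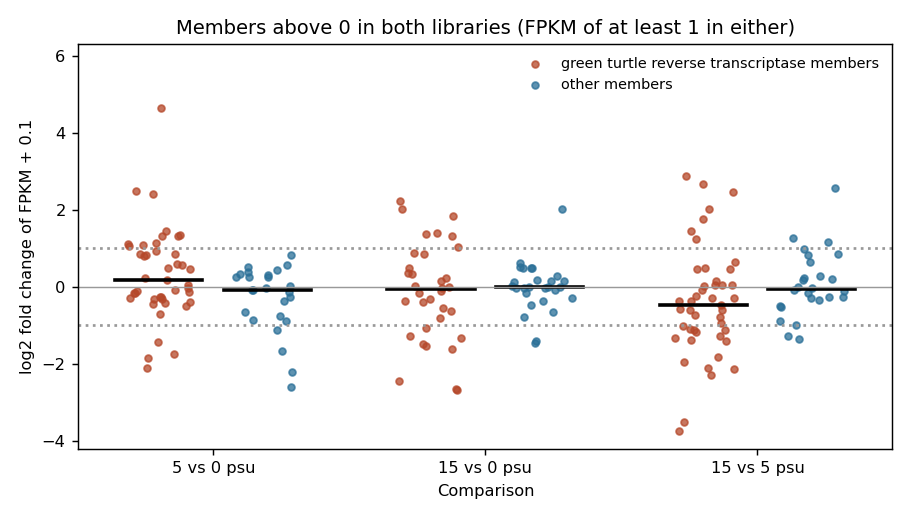
Log2 fold change of FPKM + 0.1 for members above 0 in both libraries and at FPKM of at least 1 in either, by comparison, with a point per unigene, a black line at the median and dotted lines at a 2-fold difference. Green turtle reverse transcriptase matches spread more widely than the other members, with 15 of 43, 16 of 34 and 23 of 45 outside the dotted lines in 5 vs 0, 15 vs 0 and 15 vs 5 psu.

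The spread within a unigene across the 3 libraries also differed between the green turtle matches and the other members. It is computed from the same values as the fold changes above and is no separate support for them. Of the members above 0 in all 3 libraries and at FPKM of at least 1 in any, the highest library was 2.44 times the lowest at the median of 37 green turtle matches and 1.64 times at that of 27 other members. The medians were 1.41 for the other unigenes of the 5 genera and 1.86 for all unigenes. A 2-fold range or more was found in 23 (62.2%) of the 37, in 10 (37.0%) of the 27, in 25.5% of the other unigenes of the 5 genera and in 45.6% of all. An increase from 0 to 5 to 15 psu was seen in 4 of the 64 members (6.25%) and a decrease in 13 (20.3%), against 16.9% and 15.5% of all unigenes. The library at 5 psu was the highest for 27 of the 64 (42.2%), and for 39.0% of all unigenes.

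**Figure D5:**
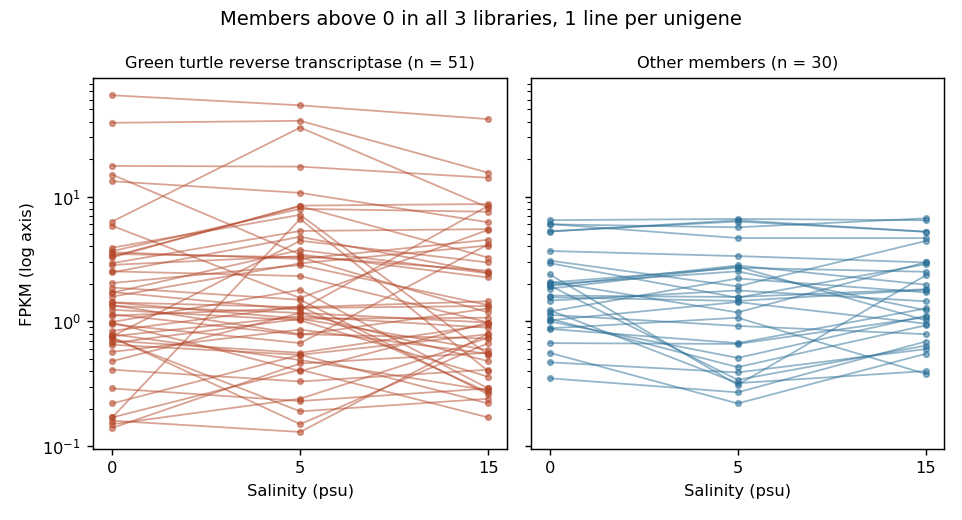
FPKM on a log axis at 0, 5 and 15 psu for the members above 0 in all 3 libraries, with a line per unigene, for 51 green turtle reverse transcriptase matches (left) and 30 other members (right). Lines of the green turtle matches cross one another in both directions, while the highest lines on the right, near an FPKM of 5 to 7, are nearly flat.

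Among the unigenes named for genes of transposon origin, those of TIGD3, GIN1 and POGZ with an FPKM over 4 stayed within a 2-fold range. Others of that level did not. The Tigger-derived 1-like c108946_g1 (7.01) and PGBD5 c203604_g1 (4.11) were found at 5 psu alone, and the Tigger-derived 1-like c122188_g7 had 3.07, 1.91 and 4.41. Whether the Tigger-derived 1-like unigenes come from a gene of the host or from repeats was not tested. Of the 3 unigenes named TIGD3 or TIGD3-like, c121522_g3 and c121522_g2 had FPKM of 6.48, 6.63 and 6.47, and of 6.0, 5.68 and 6.70, in the order 0, 5 and 15 psu. GIN1 had 5.25, 6.47 and 5.24 in c119830_g1 and 6.04, 4.66 and 4.65 in c122615_g2. POGZ (c114776_g2) had 5.28, 6.32 and 5.23. Of the TIGD5 unigenes, c110155_g1 had 2.05, 2.69 and 2.50, and c116754_g1 1.61, 1.57 and 1.81. The only unigene named TIGD4 without the suffix -like, c108788_g3, had 1.13, 0.92 and 0.79. THAP9 (c122185_g1) was lowest at 5 psu, with 2.08, 1.18 and 2.98, a log2 fold change of 1.27 for 15 vs 5 psu. Midline-1 (c117342_g1) had 3.67, 3.34 and 2.97.

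Further unigenes with the same names were found in part of the libraries. At 5 psu alone, GIN1 had 1.26 FPKM in c39483_g1 and a TIGD5-like unigene, c68113_g1, had 1.20. Another TIGD5-like unigene, c189639_g1, had 2.80 at 15 psu alone. A TIGD3-like unigene, c51731_g1, had 0.76 and 0.57 at 0 and 5 psu and was listed at 0 at 15 psu, but its Pfam domain (KRAB) and its Swissprot match are those of a zinc finger protein. Among the 18 unigenes named Tigger-derived 1 or 1-like, the highest level of all Tigger names was that of c108946_g1, with 7.01 at 5 psu alone, and c201927_g1 had 3.82 there. In the same group c118238_g2 was found in each library, with 1.56, 1.46 and 1.79. Of the Tigger-derived 4-like unigenes, the highest level was that of c25112_g1, with 3.49 at 5 psu alone. In the same group c119071_g2 had 1.20, 2.21 and 1.71 and c49281_g1 had 1.23, 0.32 and 0.40, so that they differed in opposite directions between 5 and 0 psu.

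TERT offers a view of how far unigenes of the same gene part from one another. In the component c119344, all 3 TERT unigenes were highest at 5 psu. The FPKM of c119344_g2 was 1.92, 2.81 and 1.97, that of c119344_g9 1.47, 1.77 and 1.45, and that of c119344_g4 1.02, 1.43 and 0.96. In the component c122106, c122106_g1 (2.93, 1.55 and 2.87) and c122106_g2 (1.05, 0.43 and 0.93) were lowest at 5 psu, whereas c122106_g4 (1.98, 2.52 and 1.23) was highest there. Log2 fold changes for 5 vs 0 psu thus lay between -1.12 and 0.53 within this gene. Unigenes named Tigger-derived 1 that share a component also moved apart: c122188_g7 had 3.07, 1.91 and 4.41 and c122188_g4 1.83, 2.75 and 1.02.

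The smaller repeat groups had little signal at 0 psu, with sums of 1.18 FPKM for the RNA-directed DNA polymerase homologs and 0.56 for the Pol polyprotein. At 15 psu the homologs summed to 26.03, of which c152236_g1 held 19.43. Of the 7 RNA-directed DNA polymerase homologs, c152236_g1 at 15 psu and c118676_g1, with 6.61 in 5 psu, 3.56 in 15 psu and listed at 0 in freshwater, were the only ones above 2.04 in any library. At 0 psu the group was above 0 in 3 unigenes, at no more than 0.47. The retrovirus-related Pol polyprotein had FPKM of 0.56, 0.22 and 0.55 in c71182_g1, and its other unigene was listed at 0 in all 3 libraries. Of the 16 members with a reverse transcriptase domain, 6 were above 0 in all 3 libraries and 5 in none. Beside those named above, c118797_g1 had 3.58, 3.17 and 4.51 at 0, 5 and 15 psu and c92031_g1 had 4.87 at 5 psu and 2.21 at 15 psu.

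Host genes known, mostly from mouse, human and fly, to restrain transposable elements were taken from a list of 40, of which 34 were found. Each is given by its unigene of highest mean FPKM. The 20 genes of chromatin and DNA methylation were all found and above 0 in all 3 libraries. None of 20 differed 2-fold in 5 vs 0 psu, 1 of 19 in 15 vs 0 psu and none of 20 in 15 vs 5 psu. Of the matched unigenes outside the members, 29.7%, 29.5% and 30.3% did so, and 14.6%, 14.9% and 15.5% of those above 0 in both libraries. A list gene is given by its unigene of highest mean FPKM, so these shares are not a like measure for the counts. That unigene can also be one found in a single library, as for DICER1 below. Median log2 fold changes of the chromatin genes were 0.08, -0.13 and -0.19. TRIM28, the corepressor that KRAB zinc finger proteins recruit to repeats, had FPKM of 14.1, 12.7 and 12.7 at 0, 5 and 15 psu. SETDB1, which methylates histone H3 at those sites, had 7.98, 8.91 and 7.28, and the maintenance DNA methyltransferase DNMT1 10.1, 11.5 and 10.1. The exception was MORC3, a chromatin ATPase, with 4.47, 5.66 and 11.1 in c117197_g1. Of the other MORC3 unigenes, c119209_g3 had 4.85, 5.20 and 4.03 and c73962_g1 had 4.31, 1.4 and 4.55. Lower unigenes of other chromatin genes also differed, such as EHMT1 c151883_g1 (7.58 at 5 psu only) and KDM1A c92617_g1 (3.08 at 15 psu only). Others stayed within 2-fold, such as EHMT2 c114515_g2 (9.11, 10.42 and 6.81) and DNMT3A c115586_g6 (4.46, 4.29 and 5.56). The counts above cover only the unigene of highest mean FPKM of each gene.

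The piRNA pathway, which silences transposons with small RNAs chiefly in germ cells, was found for 9 of 13 genes. The Piwi proteins PIWIL2 (1.88, 2.86 and 2.25) and PIWIL4 (1.86, 2.94 and 2.69) and the piRNA factor MAEL (7.70, 6.98 and 6.0) were above 0 in all 3 libraries. The remaining 6 had their highest unigene in a single library. DDX4, a germ cell helicase, TDRD1, TDRKH and PLD6 were at 8.49, 3.79, 3.59 and 8.25 at 5 psu only, and TDRD9 and MOV10L1 at 12.5 and 11.2 at 0 psu only. Other unigenes of DDX4 (c71612_g1, 0.83, 0.76 and 0.58) and MOV10L1 (c103291_g1, 0.42, 0.36 and 0.97) were low in all 3. So were those of TDRKH, c102772_g1 (0.74, 0.94 and 0.28) and c73792_g1 (0.24, 0.58 and 0.24). A further unigene of TDRD1, c187360_g1, had 0.80 at 15 psu only, and 1 of TDRD9, c203076_g1, had 0.73 at 0 psu only. DDX4, PIWIL2, MAEL, TDRD1 and TDRD9 are also 5 of the 7 germ cell genes found. Of the genes that act on RNA or in the cytosol, 5 of 7 were found. The editing enzyme ADAR was at 65.9, 62.1 and 68.3. SAMHD1, which limits the nucleotides available to reverse transcriptases, had 1.42, 1.98 and 8.26, a log2 fold change of 2.46 for 15 vs 0 psu and 2.01 for 15 vs 5 psu. The DICER1 unigene of highest mean, c117436_g9, was at 15.1 at 0 psu only, while 5 further unigenes of this gene lay between 0.77 and 2.30 in every library. In all, 26 of 33 list genes compared in 5 vs 0 psu stayed within 2-fold, 24 of 29 in 15 vs 0 psu and 26 of 31 in 15 vs 5 psu. Past 2-fold were 65.5%, 64.0% and 65.5% of all unigenes, but 29.7%, 29.5% and 30.3% of the other matched unigenes. Of the 67815 unigenes past 2-fold in 5 vs 0 psu over the whole table, 53238 had a library at 0. Each list gene is given by its highest unigene, so neither share is a like measure for the list.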

How the data were processed

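Liver RNA was sequenced in 3 libraries, 1 per salinity, each a mix of 3 livers. The authors trimmed reads with SeqPrep and Sickle, assembled them de novo with Trinity, quantified unigenes with RSEM (the submitters' processing notes also name Bowtie) and annotated them by BLASTX; versions are not given in the sources used here. The deposited table gives FPKM by the authors, with no scaling between libraries. Of its lines, 20 were emptied for this work and are not analysed here. Read counts were not used, so the depth of single values is unknown and no interval was computed. In unigenes with a mean FPKM of 0.3 to 1, the most frequent log2 ratios were -0.35, -0.01 and 0.33 for 5 vs 0, 15 vs 0 and 15 vs 5 psu, and their relation to depth was not tested.

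Log2 fold changes used FPKM + 0.1, and 2-fold differences were counted at FPKM of at least 1 in either library, with Python 3.11.15, numpy 2.4.6, pandas 2.3.3 and matplotlib 3.10.9. The counting was tested on simulated data in which no unigene was at 0, so the test does not cover unigenes with a library at 0. Members and lists were chosen with earlier results of these data known. Named unigenes were the 10 of highest FPKM, the 5 largest increases and 5 largest decreases per comparison among those above 0 in both libraries, the highest of each family, the 3 highest of each pattern of libraries, and for list genes the highest unigene; further unigenes of TERT, TIGD3 to TIGD5, Tigger, GIN1, POGZ, THAP9, MORC3, DDX4, MOV10L1 and DICER1, those with a reverse transcriptase domain, c71178_g1 and c118676_g1 were chosen after their values were seen. Further unigenes of TDRKH, TDRD1, TDRD9, EHMT1, KDM1A, EHMT2, DNMT3A, albumin and CD3E were likewise added after their values were seen. Families were set from the NR text, with GIN1, POGZ and THAP9 and Midline-1 put apart once the texts were seen. Alternatives were other pseudocounts, filters and scaling, and other member sets.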

Additional observations from a re-analysis of the deposited data

How the results depend on the processing

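No paired analysis was possible because each salinity has 1 library. A count was taken as moved past 1.5 times, a median or ratio past 0.1 on the log2 scale. The 81 members above 0 in all 3 libraries became 39 at FPKM of at least 1, 283 of 738 with NR text of any species, 156 of 421 with ORF2 of Acanthochelys added and 51 with green turtle reverse transcriptases only. Members with a 2-fold difference were 64 of 113 in 5 vs 0, 56 of 98 in 15 vs 0 and 68 of 111 in 15 vs 5 psu. Above 0 in both libraries they were 19 of 68, 19 of 61 and 28 of 71, against 29.0%, 27.2% and 29.5% of all unigenes. They numbered 21, 17 and 17 at FPKM of at least 5, 200, 190 and 213 for any species and 117, 97 and 126 with ORF2 added. Such counts follow the number of unigenes in a set, so a moved count need not be a moved share. Shares were not computed at FPKM of at least 5 or for the larger sets. The median of 0.33 in 5 vs 0 psu was 0.22 without a filter, 0.57 at FPKM of at least 5, 0.0064 above 0 in both libraries, 0.20 after rescaling to a median ratio of 1, 0.69 without host genes and 0.58 for green turtle matches. That of -0.37 in 15 vs 5 psu was -0.27 above 0 in both libraries, -0.60 without host genes and -0.60 for green turtle matches. The set without host genes left out all Tigger-derived names, the 1-like ones included. The log2 ratio of the sums of 0.30 in 5 vs 0 psu was 0.038 for any species and 0.19 with ORF2 added. In 15 vs 0 psu it was -0.22 and in 15 vs 5 psu -0.49 for green turtle matches, and in 15 vs 5 psu -0.16 for any species. Other settings, among them pseudocounts of 1 and 0.01 and 1 unigene per component, kept every value within these bounds. The sets with ORF2, of green turtle matches alone and without c109563_g2 or c116801_g1 were chosen after seeing the data. With mixed livers, the spread between turtles limits all of these values.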

Other observations

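Further unigenes with names or domains linked to repeats lay outside the rule. The NR match of 198 unigenes was ORF2 of the turtle Acanthochelys spixii, a description that holds no term of the rule. Of these, 75 (37.9%) were above 0 in all 3 libraries and 55 in none, and their FPKM summed to 1170, 1306 and 1064 in the order 0, 5 and 15 psu. The highest was c124519_g1, with 230.3, 197.1 and 151.4. A term of the rule with a match in another species was carried by 515 unigenes, 202 (39.2%) of them above 0 in all 3 libraries, with sums of 769.4, 714.5 and 696.3. The Pfam reverse transcriptase domain was given to 279 unigenes, 16 of them members, and their sums were 1324, 1240 and 1281. These unigenes were looked up after the members' values were seen. Those with a term of the rule were not sorted into repeats and genes of the host. The Pfam set was not cleared of unigenes in the other sets, so the sums can overlap.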
